A study of Mus musculus with 11 samples.

Results

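The genes described here encode proteins that hold synapses together around the Purkinje cell, together with a scaffold of its delta glutamate receptor. They are Grid2ip, Adgrb3, Nrxn2, Nrxn3, Nlgn1, Nlgn2 and Nlgn3, chosen by matching their symbols in the gene name column of the deposited count files. These are 7 of the 55421 genes listed, and all 7 were among the 13375 with enough reads to be tested. The choice used no measured value of the knockout comparison, but it was made with earlier results of these data known.

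The RNA came from whole mouse cerebellum on postnatal day 56. In RiboTag, Cre recombinase switches on an HA-tagged copy of the ribosomal protein Rpl22, and an antibody to the tag then pulls down ribosomes with the RNA bound to them. Here the Cre is driven by the Pcp2 promoter, which is active in Purkinje cells, and it acts constitutively, without induction. The 4 knockout animals had the genotype Pcp2Cre;Tie2flox/flox;Rpl22HA/HA and the 7 controls Pcp2Cre;Rpl22HA/HA, so both groups carried the Cre and the tagged ribosome and differed in the floxed alleles of Tie2, an angiopoietin receptor encoded by Tek. The comparison asks how RNA on Purkinje cell ribosomes differs when these cells lack Tie2. Batch 1 held knockouts F371 and M374 and control M379, batch 2 knockout M390 and control M386, and batch 3 knockout M456 and controls F473, M476, M477, M479 and M480. Leaving out M456, M379, M390 or M386 therefore leaves its batch with a single genotype. That whole batch then no longer enters the comparison of genotypes within batches, wherever such values are given below. Each library has its own animal tag, and this is the sole sign that the libraries are separate animals.

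A Purkinje cell receives excitatory input from the parallel fibres of granule cells and from a climbing fibre, and inhibitory input from interneurons. At parallel fibre synapses, neurexins on the presynaptic side bind cerebellin secreted by granule cells, and cerebellin binds the delta receptor GluD2 on the Purkinje cell. Neuroligins are postsynaptic partners of neurexins, and C1q-like proteins link climbing fibres to adhesion receptors of the BAI family. RNA bound to tagged ribosomes reports the Purkinje cell side of these pairs, while ligands made by other cells enter the libraries to the extent that untagged RNA is carried along.

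Sequencing depth, as reads in genes, was 2.58 to 4.2 M per knockout and 4.09 to 5.14 M per control library. Knockout totals were 0.47 below control totals on the log2 scale within batches (exact two-sided permutation p = 0.0278, the smallest that 36 arrangements within batches allow). A count of 3 stood for 0.592 to 1.2 CPM in a single library, where CPM is the read count scaled to a common library size. Tek had 21 reads over all knockouts and 93 over all controls, with a log2 fold change of 0.87 ± 0.95 (SE, edgeR adjusted p = 0.52), so it could not check the labels. All 19 Purkinje cell markers listed were measured, and their summed level was 7139 to 8240 CPM in the controls and 6890 to 9391 CPM in the knockouts. Summed granule cell markers covered 536.7 to 1028 CPM in the controls and 715 to 2021 CPM in the knockouts, and those of Bergmann glia and astrocytes 404.6 to 658.4 and 502.3 to 1390 CPM. Oligodendrocyte markers summed to 363.9 to 799.2 CPM in the controls and 419.4 to 1055 CPM in the knockouts, and interneuron and unipolar brush cell markers to 176.3 to 276.5 and 255.7 to 358.6 CPM. Within batches these last 4 sums were higher in the knockouts by 0.92, 0.95, 0.59 and 0.41 on the log2 scale (exact permutation p = 0.0278 each, without adjustment). Microglia markers summed to 38 to 77 CPM in the controls and 29.9 to 156.7 CPM in the knockouts (exact permutation p = 0.111), and endothelial and mural markers to 19.2 to 137.3 and 32.4 to 133.3 CPM (p = 0.139). No listed marker of any of these cell types was at 0 in a whole group. The part of depth and of RNA from other cells in the differences described here was not tested. In such bulk samples a smaller number of cells of a type and less RNA per cell cannot be told apart.

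Promoter sequences are shown for the pair of genes with the largest positive fitted changes, Nrxn3 and Nlgn2, which also varied together between libraries. The RefSeq promoter table of GRCm38.p6 matched 5 of the 7 genes, with 9 start sites. The stretches below are the 250 bases upstream of each listed start, 5′ to 3′ on the strand of the gene, with CpG dinucleotides in capitals.
Nrxn3 start site 1, chr12:88794254-88794503, plus strand: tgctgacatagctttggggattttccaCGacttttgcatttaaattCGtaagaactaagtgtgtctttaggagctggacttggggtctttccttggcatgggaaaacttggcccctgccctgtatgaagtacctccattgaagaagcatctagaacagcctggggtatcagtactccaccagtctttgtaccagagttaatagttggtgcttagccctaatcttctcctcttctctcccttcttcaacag
Nrxn3 start site 2, chr12:88953140-88953389, plus strand: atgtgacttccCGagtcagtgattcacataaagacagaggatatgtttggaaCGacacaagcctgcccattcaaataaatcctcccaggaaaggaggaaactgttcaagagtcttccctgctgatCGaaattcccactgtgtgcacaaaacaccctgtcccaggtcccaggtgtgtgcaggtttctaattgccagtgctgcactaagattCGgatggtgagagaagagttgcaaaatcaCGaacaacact
Nrxn3 start site 3, chr12:89812233-89812482, plus strand: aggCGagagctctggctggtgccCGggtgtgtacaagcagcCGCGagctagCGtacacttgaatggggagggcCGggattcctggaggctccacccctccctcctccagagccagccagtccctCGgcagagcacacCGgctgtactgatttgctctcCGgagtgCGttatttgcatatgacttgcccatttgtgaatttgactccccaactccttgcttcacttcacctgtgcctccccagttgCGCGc
Nlgn2, chr11:69837785-69838034, minus strand: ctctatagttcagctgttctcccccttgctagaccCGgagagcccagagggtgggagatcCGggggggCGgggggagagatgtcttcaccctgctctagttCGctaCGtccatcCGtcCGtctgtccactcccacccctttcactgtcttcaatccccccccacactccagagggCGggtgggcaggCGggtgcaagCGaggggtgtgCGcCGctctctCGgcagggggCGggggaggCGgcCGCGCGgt
The Nlgn2 promoter was the richest of these in GC, at 67.6% with 18 CpG, against a median of 52.4% and 6 CpG over 32851 promoters of this length. The Nrxn3 starts had 45.6%, 46.8% and 60.0% GC and 2, 5 and 12 CpG. The RefSeq span of Nrxn3 begins at 88722701, upstream of all the starts listed, so the outer end of the gene has no window here. Whether each listed start is a true start of transcription, and whether it is used in these cells, was not tested. The share of all promoters with a GC content at least as high was 12.9% for Nlgn2. The FoxO core GTAAACA, searched on both strands because Tie2 acts on FoxO factors through Akt, was absent from all 9 windows of the 5 genes and present in 3.2% of all promoters. That absence says only that these letters are not in these windows.

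Among the 7 genes, Nrxn3 alone passed the test between knockout and control. It rose 1.21-fold in the knockouts, and the other 6 genes did not pass. Over all tested genes 24.4% passed in either direction, 10.9% higher and 13.4% lower, so 1 of 7 (14.3%) is not above the background. The median log2 fold change of the 7 genes was -0.09, against -0.02 over all tested genes. The knockout and control libraries overlapped for all 7 genes, where 13.0% of tested genes had groups that did not overlap. Counts give no transcript lengths here, so levels are compared between libraries and not between genes.

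**Figure D1:**
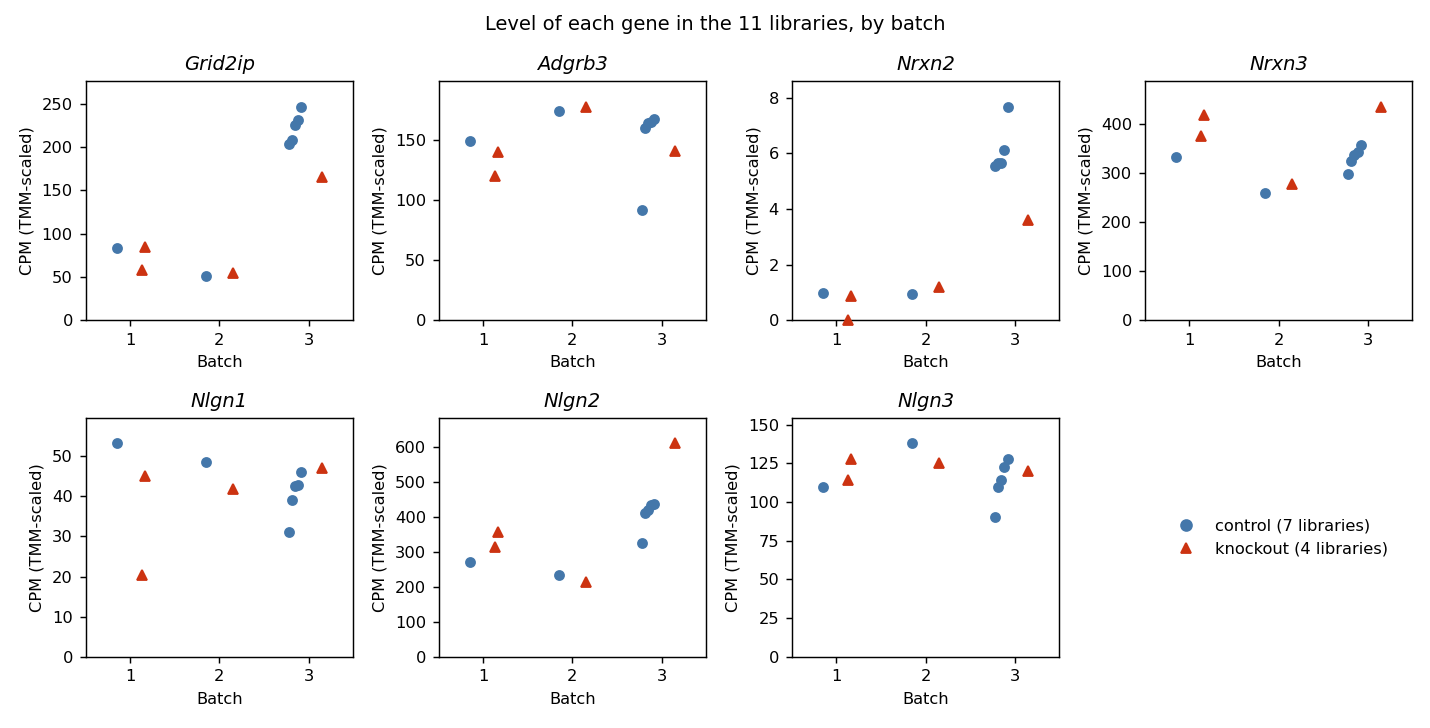
Level of each of the 7 genes in CPM (read counts scaled with TMM factors, linear axis) in the 11 libraries, placed by batch, with 1 point per library and knockouts and controls in different colours. Grid2ip, Nrxn2 and Nlgn2 were higher in batch 3, while Nrxn3 lay above the same-batch controls in each of the 4 knockouts.

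Neurexins are presynaptic adhesion proteins that exist in long and short forms from separate promoters and in many splice forms, and a count per gene merges these. Nrxn3 (ENSMUSG00000066392, chromosome 12, 88722701 to 90334935) stood at 376 and 417 CPM in knockouts F371 and M374 and at 333 CPM in control M379 of the same batch. In batch 2 it was at 277 CPM in knockout M390 and 258 CPM in control M386. In batch 3 knockout M456 had 435 CPM and the controls 357, 324, 336, 343 and 298 CPM. Every knockout was thus above the controls of its own batch, although M390 was below all 6 controls of the other batches. The log2 fold change of Nrxn3 was 0.27 ± 0.09 (SE, edgeR adjusted p = 0.0369). The call was close to the threshold. Without knockout M456 the change was 0.19 (adjusted p = 0.313), and it also missed the threshold without control M379, F473, M477, M479 or M480 (0.26 to 0.31, adjusted p = 0.0519 to 0.0919). With the library total as a covariate it was 0.13, and with a marker score 0.14 (edgeR adjusted p = 0.66 and 0.872). That score was the mean log2 CPM of granule cell, Bergmann glia and astrocyte, and oligodendrocyte markers minus that of Purkinje cell markers. The library total and the sums of these non-Purkinje markers themselves differed between genotypes within batches. Either covariate therefore shares its variation with genotype, and the SE of Nrxn3 grew from 0.09 to 0.12 and 0.18. What depth or carried RNA contributed to the change was not tested.

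Nrxn2 (ENSMUSG00000033768, chromosome 19, 6418756 to 6533217) was close to the limit of detection. It had 3 and 0 reads in knockouts F371 and M374 and 4 in control M379, then 5 in knockout M390 and 4 in control M386. Batch 3 gave 9 reads in knockout M456 and 25, 33, 26, 30 and 28 in the controls. The high libraries were therefore all of batch 3. A library with 0 reads still allows 0.884 CPM (3 counts in M374). Batch 3 holds 5 of the 7 controls and 1 of the 4 knockouts, and the means without regard to batch were 4.65 ± 2.64 CPM for controls and 1.42 ± 1.55 CPM for knockouts (SD, n = 7 and 4). With batch in the model the log2 fold change was -0.58 ± 0.64 (SE, adjusted p = 0.54). The 95% interval was -1.95 to 0.79, and leaving out 1 library at a time gave -0.34 (without M374) to -0.83 (without M390).

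The neuroligins are postsynaptic receptors for neurexins. Nlgn2, the form found at inhibitory synapses (ENSMUSG00000051790, chromosome 11, 69823123 to 69837784), had 357 and 313 CPM in knockouts F371 and M374 against 270 CPM in control M379. In batch 2 knockout M390 was slightly lower than control M386, at 215 against 233 CPM. Knockout M456 had the highest value of the series, 611 CPM, against 420, 435, 413, 436 and 325 CPM in the controls of batch 3. Knockouts were above their controls in batches 1 and 3 but not in batch 2. The log2 fold change of 0.33 ± 0.12 (SE, 95% interval 0.07 to 0.59) missed the threshold with an adjusted p of 0.0572. It passed without either library of batch 2 (0.50, adjusted p = 0.00643 with both left out) and without control M476 (0.37, adjusted p = 0.0426). Without knockout M456 it was 0.13 (adjusted p = 0.635), and a covariate for library size turned it to -0.050 (adjusted p = 0.914).

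Nlgn1 acts mainly at excitatory synapses (ENSMUSG00000063887, chromosome 3, 25421808 to 26332866). Its level was 20.3 and 45.1 CPM in knockouts F371 and M374, 53.2 CPM in control M379, 41.8 CPM in knockout M390 and 48.5 CPM in control M386. In batch 3 it was 47 CPM in knockout M456 and 39.1, 31.2, 42.8, 42.5 and 46 CPM in the controls. F371 was the lowest library, and the within-batch log2 ratio changed sign, from -0.69 in batch 1 to 0.22 in batch 3. The log2 fold change was -0.20 ± 0.24 (SE, adjusted p = 0.58). It was -0.0039 without knockout F371 and -0.50 without knockout M456, and its sign turned to 0.075 without control M379.

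Nlgn3 is found at excitatory and inhibitory synapses (ENSMUSG00000031302, chromosome X, 101299179 to 101321350). Knockouts F371, M374, M390 and M456 had 114, 128, 125 and 120 CPM. The controls had 110 CPM in batch 1, 138 CPM in batch 2 and 128, 90.3, 123, 114 and 110 CPM in batch 3. The 4 knockouts lay within the range of the controls. The log2 fold change was 0.04 ± 0.13 (SE, 95% interval -0.23 to 0.32, adjusted p = 0.83), and 0.011 (without M456) to 0.14 (without M386) as each library was left out.

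The mix of the 3 neuroligins was compared as shares of their summed reads, 1613 to 2898 per library, which the scaling of totals does not alter. Nlgn2 held 72.6% and 64.4% of the reads in knockouts F371 and M374 and 62.2% in control M379. In batch 2 its share was 56.4% in knockout M390 (exact binomial 95% interval 53.9% to 58.8%) and 55.6% in control M386 (53.3% to 57.9%), intervals that cover counting error alone. In batch 3 it was 78.5% in knockout M456 and 71.5%, 78.2%, 71.3%, 73.6% and 67.5% in the controls. The batch 2 libraries thus had the lowest Nlgn2 shares whatever the genotype. Within batches the Nlgn2 share was 4.81 percentage points higher in the knockouts (exact permutation p = 0.0833), that of Nlgn1 2.53 points lower (p = 0.139) and that of Nlgn3 2.27 points lower (p = 0.167), and all 3 had an adjusted p of 0.167. None of the 3 differences passed the test. The smallest p that the 36 arrangements allow is 0.0278 before adjustment, and the shares are parts of one whole, so they are not separate tests. Missing the threshold therefore does not show that the mix was unchanged. Leaving out single libraries moved the 3 differences, and for M379, M390, M386 and M456 this takes the whole batch out of the comparison. The Nlgn1 difference was -1.55 points without F371 and -1.0 without M379, and that of Nlgn3 -0.452 without M456. That of Nlgn2 ranged from 3.55 (without F371) to 6.17 (without M390 or M386).

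**Figure D2:**
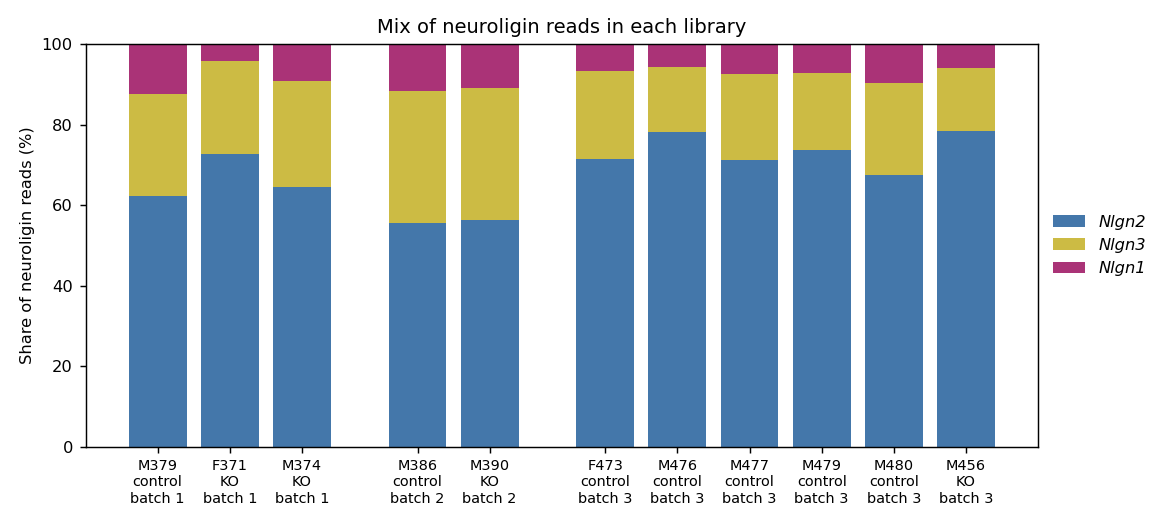
Share of Nlgn1, Nlgn2 and Nlgn3 in the neuroligin reads of each library (stacked bars, percent), ordered by batch and labelled by animal tag and group. Nlgn2 took 55.6% to 78.5% and was lowest in both libraries of batch 2.

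Grid2ip encodes delphilin, a scaffold that binds the tail of GluD2 at parallel fibre synapses (ENSMUSG00000010825, chromosome 5, 143357330 to 143391779). Its level was 84.2 and 57.6 CPM in knockouts F371 and M374, 83.3 CPM in control M379, 54.3 CPM in knockout M390 and 51.1 CPM in control M386. In batch 3 it was 166 CPM in knockout M456 and 208, 247, 226, 232 and 204 CPM in the controls. M456 lay below all 5 controls of its batch, yet above every library of the other batches. Without regard to batch, the mean was 178.6 ± 78.0 CPM over the controls and 90.6 ± 52.2 CPM over the knockouts (SD, n = 7 and 4), while the log2 fold change with batch in the model was -0.24 ± 0.14 (SE, 95% interval -0.53 to 0.06, adjusted p = 0.22). Leaving out knockout M456 gave -0.10 and knockout M374 -0.14 (adjusted p = 0.764 and 0.474).

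Adgrb3, also called BAI3, is a receptor for C1q-like proteins on the Purkinje cell (ENSMUSG00000033569, chromosome 1, 25067476 to 25834772). The knockouts F371, M374, M390 and M456 had 140, 120, 178 and 141 CPM. The controls had 149 CPM in batch 1, 174 CPM in batch 2 and 164, 91.4, 160, 168 and 165 CPM in batch 3. Control M476 was far below the others, and the remaining libraries of both groups lay between 120 and 178 CPM. The log2 fold change was -0.09 ± 0.16 (SE, adjusted p = 0.70). It was -0.12 without M476 (adjusted p = 0.327), -0.019 without control M379 and -0.027 without knockout M374 (adjusted p = 0.961 and 0.922). RefSeq places other genes within the spans of Grid2ip, Adgrb3, Nrxn2, Nrxn3 and Nlgn1, and as no strand setting is given, reads of such neighbours cannot be told apart.

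**Figure D3:**
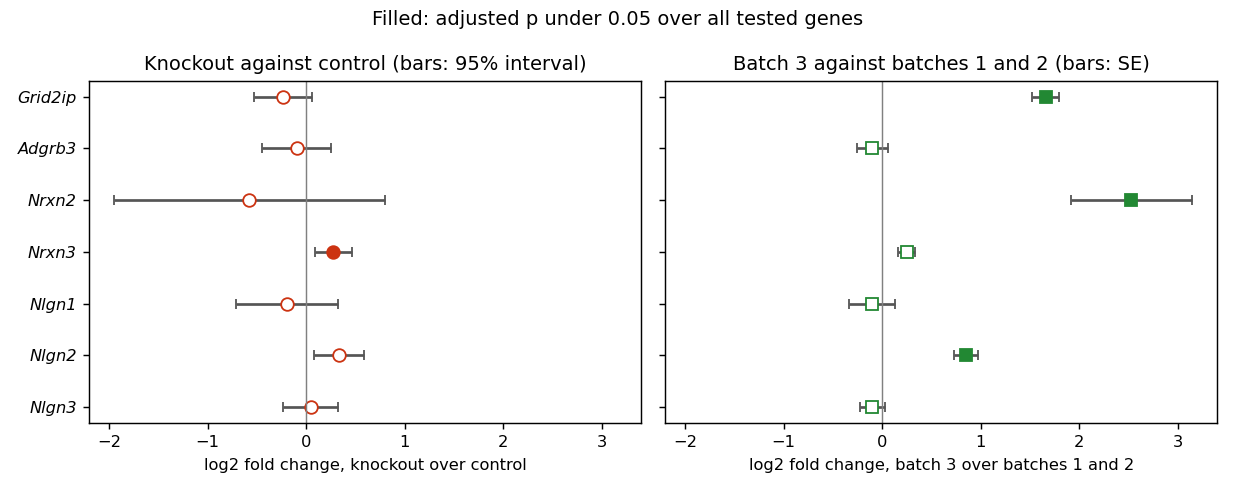
Fitted log2 fold change of the 7 genes, at left between knockout and control with 95% intervals and at right between batch 3 and batches 1 and 2 with standard errors. Filled points passed an adjusted p of 0.05 over all tested genes, which was Nrxn3 at left and Grid2ip, Nrxn2 and Nlgn2 at right.

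The level of 3 of the 7 genes was higher in batch 3 than in the other batches, without overlap between libraries for Grid2ip and Nrxn2 and with overlap for Nlgn2. How many of all tested genes lacked overlap between these batches was not counted, so that separation has no background. In the model with batch and genotype, Grid2ip was 3.16-fold higher in batch 3 than in batches 1 and 2 (log2 difference 1.66 ± 0.14 SE, edgeR adjusted p = 8.78e-06). Nlgn2 was 1.8-fold higher (0.85 ± 0.12, adjusted p = 0.000375). Nrxn2 was 5.77-fold higher (2.53 ± 0.62, adjusted p = 0.0118). Over all tested genes 17.4% differed in this contrast, 1471 genes higher and 850 (6.36%) lower in batch 3. Nrxn3 had a batch difference of 0.25 ± 0.09 (adjusted p = 0.0596), and Adgrb3, Nlgn1 and Nlgn3 had -0.10 each (adjusted p = 0.69, 0.80 and 0.62). Between batches 2 and 1, 0.217% of tested genes and 0 of these 7 passed in edgeR. At an unadjusted p under 0.05 there were 3 of the 7, a count without a background, since the share of all genes at that level was not computed. The labels name the batches by number and do not say what they share. Without the batch term Grid2ip had a log2 fold change of -0.99 (adjusted p = 0.0827) and Nrxn2 one of -1.77 (adjusted p = 0.125).

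How the genes varied among themselves was described over the 11 libraries after batch means were removed. The difference between genotypes was left in, and values of 1 library share its depth and its mixture of RNA. Grid2ip and Nrxn2 went together (Pearson r = 0.947), as did Nrxn3 and Nlgn2 (0.835), while Grid2ip and Nrxn3 ran opposite (-0.699). The values of Nrxn2 rest on few reads, 0 to 5 per library outside batch 3 and 9 in knockout M456. The nearest genes were picked as the highest of all genes with a mean of at least 5 CPM, so high values come partly from the picking. Those most like Nrxn3 were Timp2 (0.985), Ccni (0.977) and Zfp830 (0.976), and those most like Nlgn2 were Zfp839 (0.979), Agpat3 (0.978) and Fads6 (0.976). Nearest to Grid2ip were Yae1d1 (0.968), Alkbh2 (0.965) and Gm29865 (0.964), and to Nrxn2 Lrrc51 (0.987), H2-Ab1 (0.982) and Dcp1b (0.982). Adgrb3 was closest to Ccdc126 (0.975), Dnajc14 (0.974) and Etfrf1 (0.972), Nlgn1 to Eif2a (0.988), Plcxd3 (0.962) and Dysf (0.943), and Nlgn3 to Strap (0.94), Cage1 (0.93) and Dync1i2 (0.917).

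The wider synapse adhesion machinery was read through 7 lists with 93 genes, of which 83 could be tested. In the knockouts 12 rose, 6 fell and 65 did not pass, so 21.7% passed against 24.4% of all genes. Their median log2 fold change was 0.18 against -0.02 over all genes. In 6 of the 83 the groups did not overlap, against 13.0% of all tested genes. The counts of each list below stand against 10.9% of all tested genes higher and 13.4% lower in the knockouts. Of the 18 genes that passed, 2 still passed without knockout M456 and 3 without control M379, with the sign kept in all 18 both times. With the library total or the marker score as a covariate 0 of the 18 passed in edgeR, and 16 and 18 kept their sign. As both covariates go with genotype within batches, such fits also take up part of the genotype difference. The lost calls therefore do not show what depth or carried RNA contributed. Cbln1 and Cbln3 are among the 18 and are also part of the marker score.

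**Figure D4:**
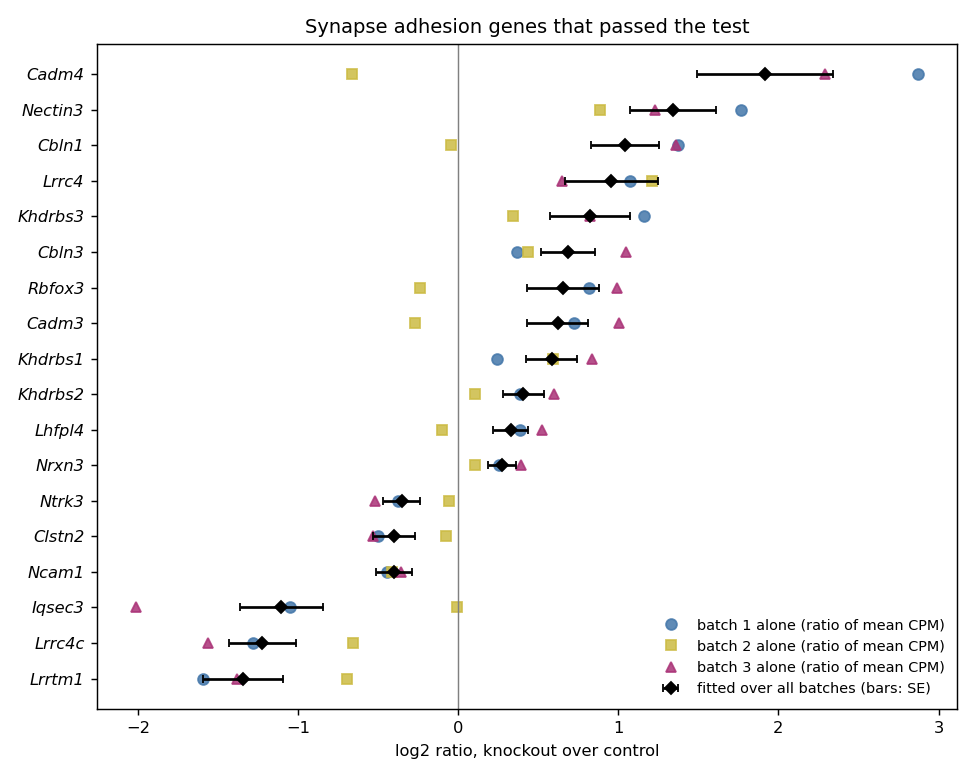
Log2 ratio of knockout over control for the 18 synapse adhesion genes that passed, with the fitted value and its standard error and the ratio within each of the 3 batches as separate symbols. Ratios of batch 2 lie closer to 0 for most genes, and for Cbln1, Cadm4, Cadm3, Lhfpl4 and Rbfox3 on the other side of it.

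Among delta receptors, cerebellins and C1q-like ligands, 2 of 6 tested genes rose and 0 fell. Cbln1, the cerebellin that granule cells secrete onto parallel fibre synapses, had 125 and 193 CPM in the batch 1 knockouts and 61.2 CPM in their control, 63.6 against 65.7 CPM in batch 2, and 253 CPM in knockout M456 against 73.8 to 108 CPM in the controls of batch 3. The 3 knockouts of batches 1 and 3 were above all controls and M390 was not. Its log2 fold change was 1.04 ± 0.21 (SE, adjusted p = 0.00466). Cbln3, the partner with which Cbln1 assembles, rose by 0.69 ± 0.17 (adjusted p = 0.0103). Its ratios within batches 1, 2 and 3 were 0.37, 0.43 and 1.05. Knockouts F371, M374 and M390, at 127, 140 and 125 CPM, lay within the control range of 92.2 to 214 CPM, and only M456 (353 CPM) was above it. Cbln1 and Cbln3 are granule cell products and also stand in the granule cell marker list, of which 11 of 15 tested genes rose and 0 fell. Ptpn4, a phosphatase that binds GluD2, did not pass (0.27 ± 0.13, adjusted p = 0.131). The other 6 genes of the list were too low to test, and of these Cbln4, C1ql2 and C1ql4 had 0 reads in a whole group.

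Of the adhesion receptors of the BAI and latrophilin families with their teneurin and FLRT ligands, 0 of 13 passed in edgeR, with 1 higher and 1 lower at an unadjusted p under 0.05. DESeq2 called 1 higher and 1 lower and limma-voom 0. Over all genes DESeq2 called 4204 and limma-voom 2759, and in edgeR 5285 of 13375 had an unadjusted p under 0.05. Adgrl1, or latrophilin 1, had a log2 fold change of -0.07 ± 0.14 (adjusted p = 0.763). The batch contrast called 7 of these 13, all higher in batch 3, where it called 17.4% of all tested genes and 1471 of 13375 as higher.

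Among neurexins and their other ligands, Nrxn3 rose and 2 of 15 fell. Lrrtm1, a postsynaptic neurexin ligand, was at 9.29, 7.42, 5.67 and 14.5 CPM in knockouts F371, M374, M390 and M456. In the controls it was at 26.3 CPM in batch 1, 9.48 CPM in batch 2 and 31.4 to 42.3 CPM in batch 3. Each knockout was below the controls of its batch. The log2 fold change of Lrrtm1 was -1.34 ± 0.25 (SE, adjusted p = 0.00325). Clstn2, a calsyntenin, fell by 0.40 ± 0.13 on the log2 scale (adjusted p = 0.0374), and its relative Clstn3 did not pass (-0.15 ± 0.12, adjusted p = 0.391).

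With the neuroligins stood their regulators and the partners of the inhibitory postsynapse, of which 1 of 10 rose and 1 fell. Iqsec3, a gephyrin-binding activator of ARF proteins at inhibitory synapses, had 85, 53.7 and 48.2 CPM in knockouts F371, M374 and M456 and 105 CPM in M390, against 105 CPM in control M386, 144 CPM in M379 and 177 to 212 CPM in batch 3. The batch 2 pair was level and the other knockouts were far below their controls. Its log2 fold change was -1.10 ± 0.26 (SE, adjusted p = 0.00831). Lhfpl4, which couples GABA-A receptors to Nlgn2, rose by 0.33 ± 0.11 (adjusted p = 0.043), with a ratio of -0.10 in batch 2. Like Nlgn2 it was higher in batch 3 (log2 difference 0.71 ± 0.11, adjusted p = 0.000614).

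The list of LAR-type receptor phosphatases and their ligands also holds the netrin-G1 ligand Lrrc4c and its relative Lrrc4. It had 1 gene higher and 2 lower of 19, and these 3 include Lrrc4c and Lrrc4. Lrrc4c, the netrin-G1 ligand NGL-1, was at 24.7, 34.1, 52.5 and 24.9 CPM in knockouts F371, M374, M390 and M456 and at 60.1 to 89.7 CPM in the controls. The groups did not overlap, and the log2 fold change was -1.22 ± 0.21 (SE, adjusted p = 0.00246). Its relative Lrrc4, or NGL-2, rose by 0.96 ± 0.29 (adjusted p = 0.0269). Ntrk3, a neurotrophin receptor that also binds Ptprs, fell by 0.35 ± 0.12 on the log2 scale (adjusted p = 0.0389), while Ptprs itself had -0.40 ± 0.15 and did not pass (adjusted p = 0.0554).

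Of the SynCAMs and other adhesion molecules 3 of 11 rose and 1 fell. Nectin3, an immunoglobulin-type adhesion protein, was at 90.5, 49.6, 31.7 and 41 CPM in knockouts F371, M374, M390 and M456 and at 12.1 to 21.2 CPM in the controls. The groups did not overlap, and its log2 fold change was 1.34 ± 0.27 (SE, adjusted p = 0.00423). Ncam1, the neural cell adhesion molecule, fell by 0.40 ± 0.11 on the log2 scale (adjusted p = 0.0202) with similar ratios of -0.45, -0.41 and -0.35 in the 3 batches. Cadm4 rose by 1.92 ± 0.43 (adjusted p = 0.00659) and Cadm3 by 0.62 ± 0.19 (adjusted p = 0.0275), but their ratios in batch 2 were -0.66 and -0.27. Cadm2 did not pass (0.11 ± 0.10, adjusted p = 0.468).

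Of the genes for neurexin splicing and shedding 4 of 9 rose and 0 fell, against 10.9% and 13.4% of all tested genes. Khdrbs1, Khdrbs2 and Khdrbs3 encode the RNA-binding proteins Sam68, SLM1 and SLM2, which control an alternative exon of neurexin transcripts. Khdrbs1 was at 88.5, 82.2, 102 and 108 CPM in knockouts F371, M374, M390 and M456 and at 47.5 to 72 CPM in the controls, without overlap, and rose by 0.58 ± 0.16 (SE, adjusted p = 0.017). Khdrbs3 rose by 0.82 ± 0.25 (adjusted p = 0.0272) and Khdrbs2 by 0.41 ± 0.13 (adjusted p = 0.0296), and the ratios of all 3 were above 0 in each batch. Rbfox3, the neuronal splicing factor NeuN that granule cells hold in abundance, rose by 0.66 ± 0.22 (adjusted p = 0.044), with -0.24 in batch 2, and Rbfox2 did not pass (0.15 ± 0.10, adjusted p = 0.284). Gene counts do not show which neurexin exons were used.

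Over the 83 tested genes the batch contrast called 38, 33 higher and 5 lower in batch 3, against 17.4% of all genes. The cell type lists gave the following beside these counts. Each list is shown by up to 2 genes of smallest p. These were Zic1 (1.37 ± 0.22) and Etv1 (1.71 ± 0.29) for granule cells, and 8 of 13 markers of Bergmann glia and astrocytes rose, among them Gdf10 (1.71 ± 0.29) and Aqp4 (1.42 ± 0.28). Of oligodendrocyte markers 4 of 13 rose, with Gjc3 (1.51 ± 0.31) and Cldn11 (1.36 ± 0.34), and of interneuron and unipolar brush cell markers 5 of 10, with Kit (1.91 ± 0.38) and Npas3 (1.25 ± 0.30). Microglia markers had 3 of 10 higher, with Laptm5 (1.63 ± 0.41) and C1qa (1.30 ± 0.45), and endothelial and mural markers 1 of 9, Cldn5 (1.14 ± 0.34). Purkinje cell markers split, with 4 of 19 higher, such as Foxp2 (0.51 ± 0.12), and 3 lower, such as Lhx1 (-0.45 ± 0.11).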

How the data were processed

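The authors deposited whole-number read counts per gene for each of the 11 libraries, made with STAR and HTSeq on GRCm38 per the submitters' processing notes. The sources used here give neither versions nor counting options nor a strand setting. Each file lists 55421 genes and 5 summary lines, which stayed out of totals and tests: reads in no gene were 6.11% to 12% of counted alignments, ambiguous ones 3.82% to 4.52% and multiply aligned ones 7.91% to 10.6%. Reads in genes numbered 2.58 to 5.14 M per library. Within a group, the chi-square of each pair of libraries divided by its degrees of freedom was 2.4 to 24.2, above sampling noise, so none was treated as a copy.

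Genes were tested with the quasi-likelihood test of edgeR 4.0.16 in R 4.3.3, after filterByExpr and TMM scaling, with terms for batch and genotype, which leave 7 residual degrees of freedom. Two-sided p-values were adjusted over 13375 genes (Benjamini-Hochberg, threshold 0.05). CPM values are TMM-scaled, and log2 ratios within a batch used a pseudocount of 0.5 CPM. Neuroligin shares and summed markers were tested by exact permutation within batches. On counts simulated with the layout of this comparison for 13375 genes, 24% of 2-fold and 73% of 4-fold changes were recovered, and 1 unchanged gene was called. The simulation changed a small part of the genes, whereas 24.4% passed in the data. Its noise came from a fit without a genotype term, so genotype differences in the data counted as noise. These rates therefore hold for those settings and do not give the recovery in the measured comparison.

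The genes and lists were chosen with earlier results of these data known. Named were Tek, the 7 genes, every passing gene of the adhesion lists, from each list the gene of highest mean CPM that did not pass, the 3 genes most correlated with each of the 7, and up to 2 markers per cell type. Gene positions and promoters came from RefSeq tables. Alternatives were no batch term, other scalings and filters, DESeq2 1.42.0, limma-voom (limma 3.58.1), animals tagged M alone, batch 2 left out, each library left out, covariates, thinning to equal depth and a stricter threshold. The contrast of batch 3 with batches 1 and 2 and its alternatives were added after the data were seen.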

Additional observations from a re-analysis of the deposited data

Results flagged for a closer look

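Control M476 had 91.4 CPM of Adgrb3, far below the other 6 controls: its gap to the nearest control was 0.703 of the range of the group. It was the 1 unusual library among 14 groups checked (7 genes in 2 genotypes), and chance marks about 1 in 20 groups. M476 also differed more from the other batch 3 controls over all genes, with a chi-square divided by its degrees of freedom of 10.6 to 15.6 over its 4 pairs against 2.4 to 6.33 over the 6 pairs without it.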

How the results depend on the processing

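Of the 7 genes, 1 passed between knockout and control. None passed in edgeR with no batch term, no filter on low counts, animals tagged M alone, the library total or the marker score as covariate, or an adjusted p under 0.01. At an unadjusted p under 0.05 these gave 2 genes each, and 0 with either covariate. Over all genes 5285 of 13375 reached that level in the main fit and 5074 without the batch term. It was 6313 of 30317 without the filter and 4604 of 13552 with animals tagged M alone. The 2 genes were not always the same: without the batch term they were Grid2ip and Nrxn2, in place of Nrxn3 and Nlgn2. DESeq2 called Nrxn3 and limma-voom Nlgn2 instead (adjusted p = 0.0478). With no filter the median of all genes moved to -0.21, so changes there are relative to that. With batch 2 left out 2 passed, and 0 to 2 as each library was left out. Nrxn3 kept its sign in all 23 alternatives (0.13 to 0.36, adjusted p = 0.00965 to 0.872) but passed in 11. Signs turned for Nlgn1 without control M379 (0.075, and -0.50 to 0.075 over the libraries left out), for Adgrb3 (0.16) and Nlgn2 (-0.050) with the library total, and for Grid2ip (0.24), Nrxn2 (0.99) and Nlgn3 (-0.28) with the marker score. Over all genes 3257 passed: 335 (without knockout M456) to 4649 as each library was left out, 522 without control M379, 1271 at an adjusted p under 0.01, and 0 with the library total or marker score, where 1841 and 941 had an unadjusted p under 0.05. Without M456 all of batch 3 leaves the genotype comparison, and without M379 all of batch 1. The counts for these libraries therefore do not show the weight of a single library. Library total and the non-Purkinje marker sums differed between genotypes within batches, so the counts with either covariate do not separate these from genotype. The adhesion lists had 12 genes higher, and 7 without the filter, 21 with batch 2 left out, 3 at the stricter threshold, 0 with either covariate and 0 to 21 as libraries were left out. They had 6 lower, and 3 with limma-voom, 3 at the stricter threshold, 0 with either covariate and 1 to 9 as libraries were left out. The batch contrast called 2321 genes and 1201 (without knockout M456) to 2899 as libraries were left out, 1328 without control M379. It called 3 to 4 of the 7 genes, and Nrxn2 missed the threshold without control M386 (adjusted p = 0.0546). The causes were not tested. No paired analysis was possible because the animal tags give no replicate numbers shared between groups. Nrxn2 had 0 to 33 reads per library.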
